A study of Homo sapiens with 6 samples.

Results

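The genes described here encode 5 subunits of cohesin (SMC1A, SMC3, RAD21, STAG1 and STAG2), 4 subunits of condensin (SMC2, SMC4, NCAPH and NCAPG) and the protease separase (ESPL1). They are 10 of the 34738 genes with an expression value, found by gene name, and they were chosen from earlier results of the same comparison. What separates their siGDF15 values from their NC values is therefore given as a description, without a p-value.

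Cohesin is a ring that holds the sister copies of each chromosome together from DNA replication until cell division, and in interphase it also draws chromatin into loops. SMC1A and SMC3 form the arms of the ring, RAD21 closes it, and STAG1 or STAG2 binds RAD21 as an alternative regulatory subunit. Condensin is built on the same plan from SMC2, SMC4, a closing subunit (NCAPH in condensin I) and further subunits such as NCAPG, and it compacts chromosomes in mitosis. Separase cuts RAD21 at anaphase, which releases the sister chromatids, and it is held inactive until then by securin (PTTG1).

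The study asked which transcripts change when GDF15, a secreted stress cytokine of the TGF-beta superfamily, is silenced in thyroid cancer cells. RNA of cells transfected with an siRNA against GDF15 by lipofection with Lipofectamine (siGDF15, 3 libraries) was set against RNA of control cells, called NC, also in 3 libraries. All 6 libraries carry the label of the KHM-5M thyroid cancer line, a line in culture with no other cell source stated, whereas a figure legend of the study names the line TPC-1. The methods call the NC cells a negative control and list a negative control siRNA, whereas the deposited description calls them a blank control. For untransfected NC cells, an effect of transfection itself could not be told apart from that of siGDF15. The methods call the 3 libraries of a group biological replicates, and no time after transfection, dose or date was given.

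The libraries held between 51738814 and 68025163 expected counts (the whole-number estimates deposited beside the FPKM values), with the lowest total in siGDF15 replicate 2. Low expected counts clustered at 4, which made up 15.6% of all values between 1 and 20, so these counts run above the number of read pairs. GDF15 itself was at 22.4, 19.3 and 23.1 FPKM (fragments per kilobase, scaled to the mapped fragments of the library) in NC and at 10.8, 10.5 and 10.7 FPKM in siGDF15, or 49.2% of the NC mean. Its log2 fold change was -0.92 (SE 0.0792, adjusted p = 2.4e-05 in edgeR), and the groups did not overlap. Of the thyroid lineage markers PAX8 was clearly present (NC 59.1 ± 5.33 FPKM and siGDF15 79.4 ± 1.70 FPKM, SD, n = 3) and FOXE1 weakly so, TG, SLC5A5 and NKX2-1 were at or near 0 and TSHR had no row. In edgeR PAX8 was higher in siGDF15 (log2 fold change 0.53, adjusted p = 0.00012) and FOXE1 was not called. Summed epithelial markers overlapped between groups, at 91.4 to 133 FPKM in NC and 111 to 122 FPKM in siGDF15. Most of this sum was KRT18 (means of 92.6 FPKM in NC and 93.9 FPKM in siGDF15). CDH1, at a low level, was called higher (log2 fold change 0.61, adjusted p = 0.049 in edgeR), and KRT8, KRT18 and EPCAM were not called. Defining markers of other cell types (PTPRC, CD3E and HBB for blood cells, PECAM1, VWF and CDH5 for endothelium) were at or near 0 in every library, and CD68, which other cells also express, had overlapping groups (NC 18.3 ± 0.974 FPKM, siGDF15 16.9 ± 0.973 FPKM, SD, n = 3).

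Of the 10 genes, 9 passed the filter on a mean of at least 1 FPKM and STAG2 did not. All 9 were lower in siGDF15 at an adjusted p under 0.05, a rule that 31.4% of the 11867 tested genes met. SMC1A, SMC2, SMC4, NCAPH, NCAPG and ESPL1 also had a log2 fold change of -1 or below, and 4.78% of tested genes met both thresholds in that direction. Each of the 9 had every siGDF15 library below every NC library, as did 42.8% of tested genes. Since the genes were selected on this contrast, nothing is read from these counts. The median log2 fold change over all 10 genes, with STAG2 taken from a wider filter, was -1.36, that of the 4 condensin genes was -1.48 and that of the 5 cohesin genes was -0.66, beside 0.00257 over all tested genes. In RNA from whole cultures, fewer cells that express a gene and less RNA of that gene per cell cannot be told apart.

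**Figure D1:**
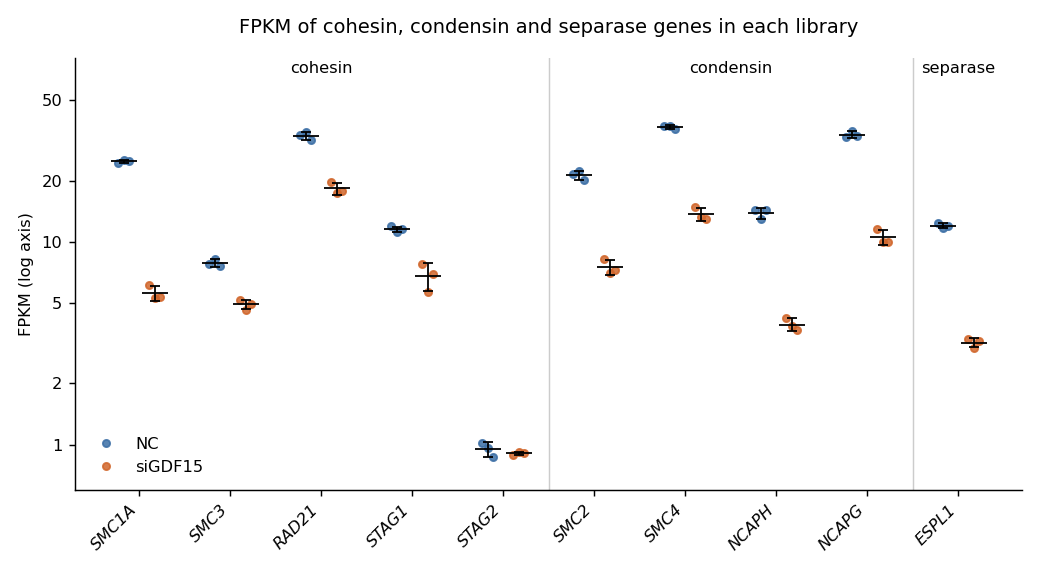
FPKM (log axis) of the 10 genes in the 3 NC libraries (blue) and the 3 siGDF15 libraries (orange). Points are libraries and bars are the mean ± SD. For every gene except STAG2 the siGDF15 points lie below the NC points, with the widest gap at SMC1A (24.9 against 5.56 FPKM on average).

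SMC1A (ENSG00000072501, GRCh38 chrX:53374149-53422728, minus strand), an arm of the cohesin ring, was at 24.5, 25.3 and 25.0 FPKM in NC and at 6.08, 5.26 and 5.34 FPKM in siGDF15. The siGDF15 libraries lay close together and far under the lowest NC library. The mean went from 24.9 ± 0.395 to 5.56 ± 0.452 FPKM (SD, n = 3), or 22.3% of NC, with a log2 fold change of -2.06 (SE 0.0596). Over all tested genes, 19 had a log2 fold change at or below this value, SMC1A included. Its locus overlaps RIBC1 on the other strand, which had at most 58 counts in a library.

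The siRNA itself is shown beside SMC1A because the SMC1A message carries matches to its seed, the stretch of bases 2 to 8 of the antisense strand that pairs first with a target and can also pair with unintended messages. The siRNA target lies in the coding sequence of GDF15, in exon 2 of 2, at chr19:18388847-18388865 on the plus strand. Sequences are written 5′ to 3′ and the transcripts are those of GENCODE release 29. Capitals mark the seed in the antisense strand and the 7 bases complementary to it elsewhere.
siGDF15 antisense strand: uGAAUGAGcaccaugggau
GDF15 target: atcccatggtgCTCATTCa
SMC1A 3′UTR, chrX:53378720-53378749: ctcagcctttaCTCATTCacatacaccatc
SMC1A 3′UTR, chrX:53378591-53378620: ttaaagatagtCTCATTCagctaccaacca
STAG1 coding sequence, chr3:136363368-136363397: gtgccaagactCTCATTCtcagtttgcaac

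Both SMC1A sites lie in the last exon (exon 25 of 25), in a 3′UTR of 5954 bases, and both are followed by an A, which makes them 8-base sites (CTCATTCA). Outside the seed the SMC1A sites match the siRNA poorly, with 11 and 9 of 19 bases equal to the GDF15 target in all. STAG1 had its site in exon 26 of 34, in the coding sequence and without the following A, and the coding transcripts searched for the other 8 genes, 1 for each, held none. Among 10543 tested genes with a coding transcript, 393 (3.73%) had an 8-base site in the 3′UTR and 16 (0.152%) had 2 or more.

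The median log2 fold change was -0.20 over the 393 genes with an 8-base site and 0.00749 over the 9359 genes without a 7-base site. Of the former, 8.65% were lower at both thresholds, beside 4.72% of all 10543 genes. The 791 genes with 7-base sites only did not share this larger share of strong decreases. Of them, 3.54% had a log2 fold change of -1 or below, beside 4.69% of genes without a site and 8.65% with an 8-base site. For a value of 0 or below, the shares in the same order were 61.19%, 49.27% and 68.45%. At this cut the 791 genes thus lay lower than genes without a site, though less so than those with 8-base sites. SMC1A had the lowest log2 fold change of the 393, and it was the only 1 of the 16 genes with 2 or more sites to be lower at both thresholds. Genes with an 8-base site also had longer 3′UTRs, with a median of 3244 bases against 840 bases in genes with no site. The part of these sites in the SMC1A value was not tested.

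**Figure D2:**
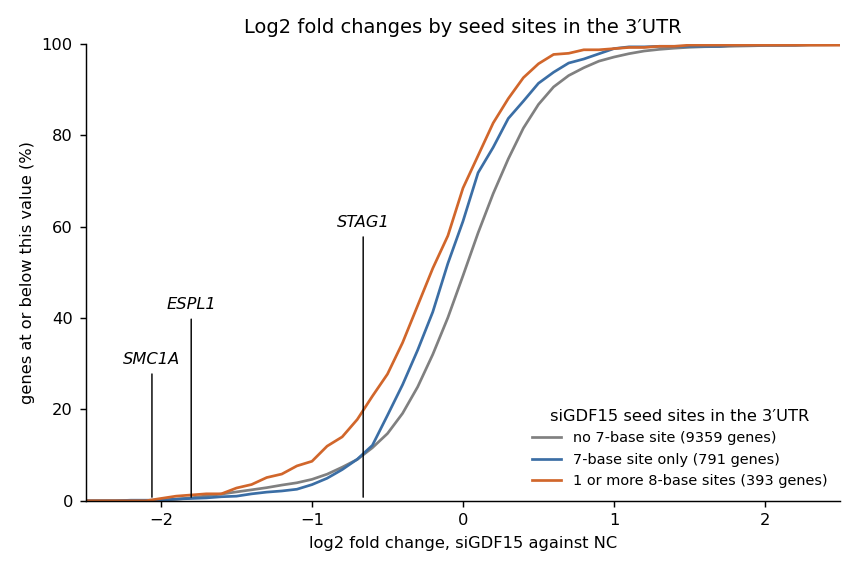
Share of genes (%, vertical axis) at or below each log2 fold change of siGDF15 against NC (horizontal axis), for genes with no seed site in the 3′UTR (grey, 9359 genes), with 7-base sites only (blue, 791 genes) and with 1 or more 8-base sites (orange, 393 genes). The orange curve lies to the left of the grey curve over most of the range, and vertical lines mark SMC1A, ESPL1 and STAG1, of which SMC1A is farthest to the left.

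SMC3 (ENSG00000108055, chr10:110567684-110606018, plus strand), the partner arm of SMC1A, showed the smallest difference of the 9 genes past the filter. It was at 7.72, 8.21 and 7.61 FPKM in NC and at 5.16, 4.62 and 4.93 FPKM in siGDF15. The groups stood apart, at 7.85 ± 0.320 against 4.91 ± 0.269 FPKM (SD, n = 3), which is 62.5% of NC and a log2 fold change of -0.57 (SE 0.0512).

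RAD21 (ENSG00000164754, chr8:116845934-116874776, minus strand), which closes the ring and is the target of separase, was at 33.5, 34.8 and 31.6 FPKM in NC and at 19.7, 17.3 and 17.8 FPKM in siGDF15. The difference, from 33.3 ± 1.57 to 18.3 ± 1.23 FPKM (SD, n = 3), was close to that of SMC3, at 54.8% of NC with a log2 fold change of -0.76 (SE 0.0567). UTP23 and RAD21-AS1 overlap RAD21 on the other strand. The libraries keep strand through dUTP marking, but whether the counting used strand was not stated, so reads of such neighbours may be shared.

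STAG1 (ENSG00000118007, chr3:136336236-136752403, minus strand), a regulatory subunit of the ring, varied most between the siGDF15 libraries relative to its mean. Its values were 11.9, 11.2 and 11.6 FPKM in NC and 7.77, 5.65 and 6.95 FPKM in siGDF15. The library with the lowest value, siGDF15 replicate 2, is also the one with the lowest total count. The mean went from 11.5 ± 0.339 to 6.79 ± 1.07 FPKM (SD, n = 3), or 58.8% of NC, and the log2 fold change was -0.66 (SE 0.0977). STAG1 shares its locus with PCCB on the other strand, which reached 5634 counts in a library, beside 2561 to 7001 counts for STAG1.

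STAG2 (ENSG00000101972, chrX:123960212-124102656, plus strand), the alternative to STAG1, did not follow the other subunits. It was at 1.02, 0.962 and 0.865 FPKM in NC and at 0.889, 0.920 and 0.910 FPKM in siGDF15. The groups overlapped, since all siGDF15 values fell between the lowest and the highest NC value. The mean of both groups together was just under 1 FPKM, so STAG2 was not among the tested genes. This FPKM rests on a gene length 3.07 times the coding transcript of STAG2, and a shorter length would give a higher FPKM. With a filter of 0.1 FPKM its log2 fold change was 0.01 (SE 0.0809), and its expected counts ran from 855 to 1235 per library.

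Between the groups the RNA proportions of the ring subunits within a library differed. The log2 ratio of SMC1A to SMC3 in FPKM was 1.67, 1.62 and 1.71 in NC and 0.237, 0.187 and 0.115 in siGDF15, a difference of -1.49 between the means. The ratio of STAG1 to STAG2 was lower in siGDF15 by -0.71 on the same scale, with values of 3.54 to 3.74 in NC and 2.62 to 3.13 in siGDF15. RAD21 stayed closer to SMC3, at a mean log2 ratio of 2.08 in NC and 1.90 in siGDF15, although these ratios did not overlap either. The share of other gene pairs whose ratios stand apart was not counted, so nothing is read from the lack of overlap. Such ratios do not depend on how libraries are scaled against each other.

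SMC2 (ENSG00000136824, chr9:104094296-104141419, plus strand), an arm shared by condensin I and II, was at 21.5, 22.3 and 20.1 FPKM in NC. In siGDF15 it was at 8.19, 7.00 and 7.28 FPKM, which is 35.2% of NC on average. The means of 21.3 ± 1.11 and 7.49 ± 0.618 FPKM (SD, n = 3) gave a log2 fold change of -1.40 (SE 0.0651).

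SMC4 (ENSG00000113810, chr3:160399274-160434954, plus strand), the other arm, had the highest FPKM of the 10 genes in NC, at 37.2, 37.3 and 36.1. The siGDF15 libraries had 14.9, 13.2 and 13.0 FPKM, and the mean went from 36.8 ± 0.694 to 13.7 ± 1.03 FPKM (SD, n = 3). This left 37.3% of NC, with a log2 fold change of -1.32 (SE 0.0567). RNA of the condensin arms kept nearly the same proportion. The log2 ratio of SMC2 to SMC4 had means of -0.79 in NC and -0.88 in siGDF15 and overlapped between groups. IFT80 and TRIM59 overlap SMC4 on the other strand, with at most 2609 counts in a library against 6246 to 22854 for SMC4.

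NCAPH (ENSG00000121152, chr2:96335766-96377091, plus strand), the subunit that closes condensin I, was at 14.3, 12.9 and 14.3 FPKM in NC and at 4.21, 3.82 and 3.67 FPKM in siGDF15. Its mean went from 13.8 ± 0.815 to 3.90 ± 0.282 FPKM (SD, n = 3), or 28.2% of NC, with a log2 fold change of -1.72 (SE 0.0723). Of the 4 condensin genes this was the largest decrease in proportion.

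NCAPG (ENSG00000109805, chr4:17810979-17844865, plus strand), a HEAT repeat subunit of condensin I, was at 32.8, 35.2 and 33.1 FPKM in NC and at 11.6, 10.05 and 9.999 FPKM in siGDF15. The groups were far apart, at 33.7 ± 1.29 against 10.5 ± 0.884 FPKM (SD, n = 3), and the log2 fold change was -1.57 (SE 0.0633). LCORL overlaps NCAPG on the other strand, with at most 1437 counts in a library against 2811 to 12778 for NCAPG. The condensin I subunits NCAPH and NCAPG lay lower against the shared arm SMC2 in siGDF15 than in NC. The difference in log2 ratio was -0.32 for NCAPH and -0.17 for NCAPG, with no overlap between groups. How often ratios of other gene pairs stand apart was not counted, so nothing is read from this lack of overlap. NCAPD2 of condensin I was lower by less than SMC2, with log2 fold changes of -1.31 and -1.40. Of the condensin II subunits, NCAPG2 (-1.64) was lower by more than SMC2, and NCAPD3 (-1.24) and NCAPH2 (-0.80) by less.

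ESPL1 (ENSG00000135476, chr12:53268299-53293638, plus strand), which encodes separase, was at 12.3, 11.7 and 11.9 FPKM in NC and at 3.32, 2.99 and 3.22 FPKM in siGDF15. The libraries of each group agreed closely, at 12.0 ± 0.340 and 3.18 ± 0.169 FPKM (SD, n = 3). At 26.6% of NC and a log2 fold change of -1.80 (SE 0.0540), it stood second to SMC1A among the 10 genes. Its inhibitor securin, PTTG1, was lower by less, from 31.2 ± 1.33 to 13.2 ± 1.69 FPKM (SD, n = 3). The log2 ratio of ESPL1 to PTTG1 was accordingly lower, at -1.35, -1.35 and -1.45 in NC and at -2.19, -2.02 and -1.93 in siGDF15. PTTG1 has near-identical copies elsewhere in the genome, which makes its own count less certain.

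**Figure D3:**
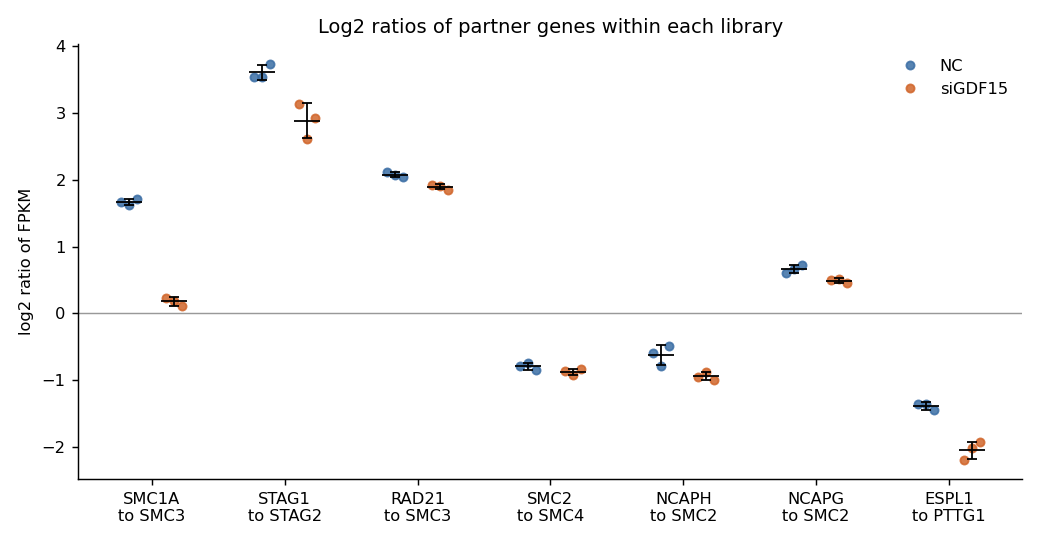
Log2 ratio of FPKM of partner genes within each library, for NC (blue) and siGDF15 (orange). Points are libraries and bars are the mean ± SD. SMC1A to SMC3 has the largest gap between groups (-1.49), and SMC2 to SMC4 is the pair whose groups overlap.

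Among the siGDF15 libraries, replicate 1 had the highest FPKM for each of the 9 genes past the filter. The same library was highest for 40.5% of all tested genes and for 55.2% of the genes called lower. Replicate 2 was the lowest of the 3 for 6 of the 9 genes. Every siGDF15 library stayed below all NC libraries for these 9 genes.

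Levels can be compared between genes only per length, and the length used mattered here. For each of the 10 genes the ratio of expected count to FPKM, scaled per library, was the same in all libraries to within 0.3%, so each FPKM rests on 1 fixed gene length. Calibrated on 1484 genes with a single transcript, that length was 1.04 times the main coding transcript for NCAPG and 1.10 times for SMC1A. It was 3.76 times for SMC3, 3.83 times for RAD21, 3.07 times for STAG2 and 2.36 times for NCAPH. The remaining genes ran from 1.08 times (SMC2) to 1.49 times (SMC4). Comparisons of 1 gene between groups are not touched by this.

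Scaled instead to the coding transcript with the longest coding sequence (a scale chosen after the lengths were seen), as CPM (expected counts scaled to the total of the library) per kilobase of that transcript, SMC3 was at 32.7 ± 1.21 in NC and SMC1A at 30.5 ± 0.383 (SD, n = 3). RNA of SMC1A and SMC3 was thus near 1 to 1 in NC on this scale, at a mean ratio of 0.933 ± 0.0295. In FPKM the SMC1A to SMC3 ratio was 3.18 ± 0.1, so the value depends on the scale, and protein of these genes was not measured. In siGDF15 the ratio was 0.333 ± 0.0141 per kilobase and 1.13 ± 0.0480 in FPKM.

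On the same scale RAD21 was the most abundant of the 10 in NC, at 141 ± 6.31 CPM per kilobase, followed by SMC4 at 60.9 ± 1.06. NCAPG at 38.8 ± 1.33, NCAPH at 36.3 ± 2.27 and SMC3 at 32.7 ± 1.21 came next. NCAPG (37.8 to 40.3) and NCAPH (33.7 to 37.7) lay side by side without overlap, the libraries of NCAPH and SMC3 (31.8 to 34.1) overlapped, and SMC1A (30.1 to 30.9) lay just under SMC3. SMC2 (25.4), ESPL1 (17.8), STAG1 (16.6) and STAG2 (3.24) followed, and of these only ESPL1 (17.3 to 18.4) and STAG1 (16.0 to 17.1) lay close together. STAG1 exceeded STAG2 5.14 ± 0.434 fold per kilobase in NC and 3.15 ± 0.547 fold in siGDF15. All reads of a gene, including any from longer or unspliced transcripts, are put on its coding transcript by this scale.

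**Figure D4:**
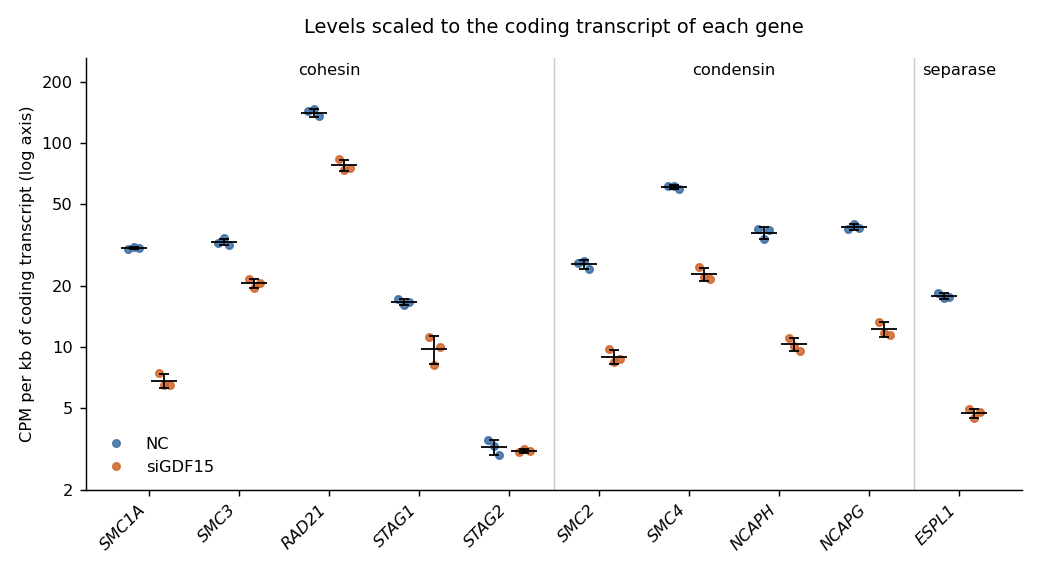
CPM per kilobase of coding transcript (log axis) for the 10 genes in NC (blue) and siGDF15 (orange). Points are libraries and bars are the mean ± SD. In NC, SMC1A (30.5) lies just under SMC3 (32.7) on this scale and RAD21 (141) is highest. In siGDF15, SMC1A is at 6.83 and SMC3 at 20.5.

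Promoter sequence was looked at for what the genes share beside their expression. RefSeq windows of GRCh38.p14, from 250 bases before to 50 bases after each transcript start, were given for 9 of the 10 genes. Searched on both strands were the CHR element of cell cycle genes (TTTGAA or TTCGAA), E2F motifs (TTTCCCGC, TTTGGCGC, TTTCGCGC or TTTGGCGG) and the CCAAT box (CCAAT). Stretches of 120 bases around the start (90 before and 30 after it) are shown for the 4 genes with a CHR match inside the stretch and for SMC1A, on the strand of the gene, with matches in capitals.
NCAPG, chr4:17810889-17811008, plus strand: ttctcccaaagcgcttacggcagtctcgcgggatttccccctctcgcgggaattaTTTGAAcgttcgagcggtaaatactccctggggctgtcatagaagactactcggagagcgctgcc
ESPL1, chr12:53268209-53268328, plus strand: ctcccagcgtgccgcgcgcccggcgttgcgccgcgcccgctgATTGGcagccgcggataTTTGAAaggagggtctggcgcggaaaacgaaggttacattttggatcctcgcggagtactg
SMC4, chr3:160399560-160399679, plus strand: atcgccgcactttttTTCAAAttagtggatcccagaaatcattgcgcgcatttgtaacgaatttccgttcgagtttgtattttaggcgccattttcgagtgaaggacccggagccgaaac
SMC2, chr9:104094219-104094338, plus strand: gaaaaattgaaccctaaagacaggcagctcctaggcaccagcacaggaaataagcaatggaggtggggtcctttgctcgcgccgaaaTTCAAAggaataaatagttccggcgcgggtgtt
SMC1A, chrX:53422625-53422744, minus strand: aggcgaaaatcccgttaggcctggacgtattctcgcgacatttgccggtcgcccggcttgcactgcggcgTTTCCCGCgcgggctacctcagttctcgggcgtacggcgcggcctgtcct

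The CHR letters occurred in 5 of the 9 windows or sets of windows (NCAPG, ESPL1, SMC4, SMC2 and SMC3), beside 15.1% of 8820 tested genes with a window. They began 35 bases before the start in NCAPG and 31 in ESPL1, 75 in SMC4, 3 in SMC2 and 151 in SMC3. ESPL1 also had a CCAAT box 48 bases before the start, read on the opposite strand as ATTGG, and was the only gene of the 9 with both, a pair found in 6.42% of tested genes. An E2F motif was found for SMC1A, STAG1 and STAG2, beside 7.09% of tested genes, and a CCAAT box for ESPL1, NCAPH, STAG1 and STAG2, beside 43.5%. The STAG2 motif, 51 bases before 1 of its starts, and a CCAAT box at the STAG1 start also lie in such stretches, which are not shown. In these windows no match of 1 motif overlapped a match of another, and TTCGAA reads the same on both strands. Genes with several starts (SMC1A, SMC2, SMC4 and STAG2) had more than 1 window and so more letters to match. A match is a stretch of letters and was not tested as a binding site.

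Beyond the 10 genes, 48 genes that act with cohesin, condensin and separase were followed, of which 45 passed the filter. In edgeR's test 37 were lower and 3 higher at an adjusted p under 0.05, and 5 did not pass, with a median log2 fold change of -0.97. Over all tested genes 31.4% were lower and 30.0% higher. The lists were drawn up with earlier results known, so these counts are a description.

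The other condensin subunits were lower in 4 of 4 cases. NCAPD2, the remaining HEAT repeat subunit of condensin I, went from 43.8 ± 0.495 to 16.4 ± 0.682 FPKM (SD, n = 3), with a log2 fold change of -1.31 (adjusted p = 5.5e-07 in edgeR). The subunits of condensin II were lower too, NCAPG2 by -1.64 (adjusted p = 5.5e-07), NCAPD3 by -1.24 (adjusted p = 3.2e-06) and NCAPH2 by -0.80 (adjusted p = 2.7e-05), on the log2 scale in edgeR. NCAPH2, the closing subunit of condensin II, thus had a smaller difference than its condensin I counterpart NCAPH (-1.72).

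Of 8 genes of separase control and cohesin protection all 8 were lower. CDK1, the kinase that drives mitosis, went from 34.7 ± 0.853 to 8.81 ± 0.379 FPKM (SD, n = 3). SGO2, a shugoshin that protects cohesin at centromeres, had a log2 fold change of -1.92 (SE 0.0927, adjusted p = 1.3e-06 in edgeR). The securin gene PTTG1 had a log2 fold change of -1.14 (SE 0.0904, adjusted p = 1.5e-05 in edgeR).

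Cohesion establishment factors, which lock the ring on DNA during replication, were lower in 9 of 10 cases with a median log2 fold change of -1.50. Of these, CHTF8 (-0.42, adjusted p = 0.024 in edgeR) did not pass without siGDF15 replicate 1 (adjusted p = 0.086) or replicate 3 (adjusted p = 0.073), and was at -0.24 without NC replicate 1. CDCA5 (sororin), which stabilises cohesin on DNA, went from 22.2 ± 1.40 to 6.10 ± 0.192 FPKM (SD, n = 3; log2 fold change -1.76, adjusted p = 5.8e-07 in edgeR). DDX11, a helicase of this step whose reads can be shared with close copies, had a log2 fold change of -1.23 (adjusted p = 7.2e-07 in edgeR).

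The acetyltransferases that modify SMC3 went in opposite directions. ESCO2, which acts in S phase and is named here after its value was seen, was at 4.62, 4.95 and 4.69 FPKM in NC and at 1.15, 1.01 and 0.915 FPKM in siGDF15, a log2 fold change of -2.10 (adjusted p = 8.1e-07 in edgeR). ESCO1, which acts throughout interphase, was at 3.12, 3.39 and 2.86 FPKM in NC and at 3.71, 4.28 and 4.15 FPKM in siGDF15. Its log2 fold change was 0.48 (SE 0.0892, adjusted p = 0.0018 in edgeR), and no siGDF15 library was below an NC library.

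Loading and release factors showed smaller differences, with 4 of 6 lower and a median log2 fold change of -0.33. PDS5A, which helps to release cohesin, went from 15.2 ± 0.156 to 10.3 ± 0.462 FPKM (SD, n = 3; log2 fold change -0.46, adjusted p = 4.1e-05 in edgeR). CTCF, which halts cohesin at loop borders, had a log2 fold change of -0.41 (adjusted p = 8.2e-05 in edgeR). The loader subunits NIPBL (-0.08, adjusted p = 0.31) and MAU2 (0.10, adjusted p = 0.28), named after their values were seen, did not pass the test in edgeR. In FPKM, NIPBL was lower in every siGDF15 library (4.44 to 5.34) than in any NC library (5.39 to 5.67), as were 42.8% of tested genes. It passed without siGDF15 replicate 1 (log2 fold change -0.16, adjusted p = 0.047 in edgeR). With any other single library left out it did not pass (adjusted p = 0.31 to 0.71 in edgeR).

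For the SMC5/6 complex, the third SMC complex, and the related SMCHD1, 6 of 9 genes were lower, 2 higher and 1 (NSMCE1) not called. SLF1 and SLF2, which bring the complex to damaged DNA, had log2 fold changes of -1.51 (adjusted p = 4.5e-06) and -0.97 (adjusted p = 5.2e-06) in edgeR. The small subunits NSMCE2 (0.29, adjusted p = 0.0096) and NSMCE3 (0.21, adjusted p = 0.029) were higher in edgeR with TMM scaling. Scaled by total count alone, which lowers the median log2 fold change of all tested genes to -0.0992, neither passed (adjusted p = 0.05 and 0.19 in edgeR, the former just above the threshold), whereas ESCO1 did (adjusted p = 0.0059).

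Of 6 genes of mitotic chromosome structure 5 were lower. TOP2A, the topoisomerase that untangles mitotic chromosomes, went from 78.9 ± 2.56 to 19.8 ± 1.94 FPKM (SD, n = 3; log2 fold change -1.89, adjusted p = 5.5e-07 in edgeR). MKI67, the coat protein of mitotic chromosomes, had a log2 fold change of -1.74 (adjusted p = 7.3e-07 in edgeR). AKAP8 was the gene of this list that did not pass (-0.01, adjusted p = 0.94 in edgeR).

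The cohesin subunits of meiosis were low or nearly absent. RAD21L1 was at 2.06, 2.00 and 2.49 FPKM in NC and at 1.25, 1.45 and 1.08 FPKM in siGDF15 (log2 fold change -0.69, adjusted p = 0.0049 in edgeR). REC8 had means of 1.35 ± 0.121 FPKM (NC) and 1.53 ± 0.119 FPKM (siGDF15, SD, n = 3) and did not pass (adjusted p = 0.087 in edgeR). SMC1B and STAG3 were under the filter.

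Markers of proliferating cells moved with the 9 lower genes. All 12 of the list were lower at an adjusted p under 0.05 in edgeR, with a median log2 fold change of -1.55, and their summed FPKM was 751 to 787 in NC and 238 to 272 in siGDF15. MKI67, TOP2A, CCNB1, CDK1 and PLK1 stand on this list and among the related genes above. The part of a changed share of cycling cells in the values of the cohesin, condensin and separase genes was not tested.

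**Figure D5:**
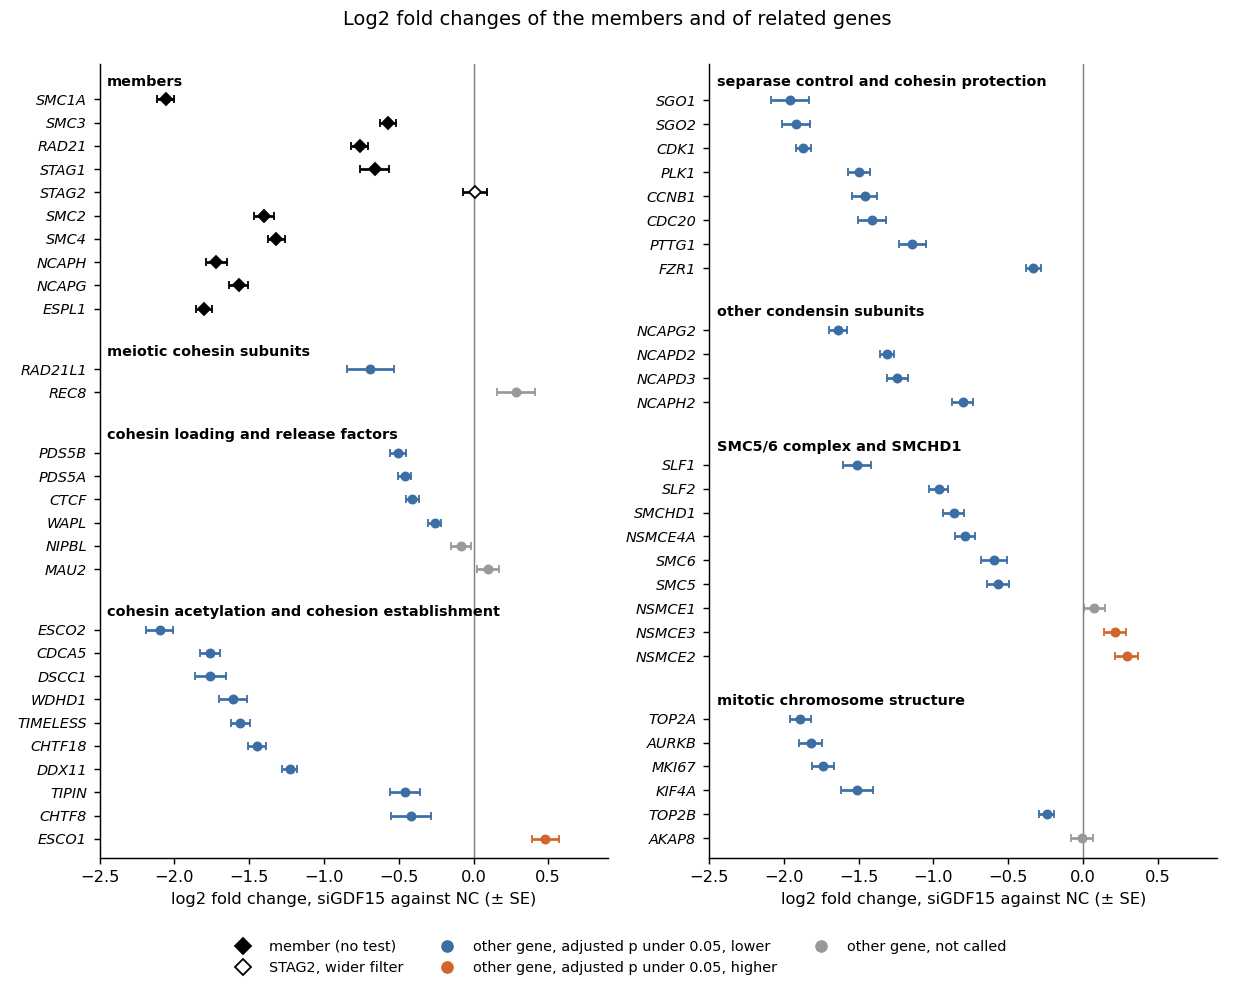
Log2 fold change of siGDF15 against NC (horizontal axis, ± SE) for the 10 genes (black diamonds, no test, STAG2 open and from the wider filter) and for the 45 related genes past the filter by list. Blue circles are lower and orange circles higher at an adjusted p under 0.05 in edgeR, and grey circles are not called. Most related genes lie left of 0, and ESCO1, NSMCE2 and NSMCE3 are the orange ones.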

How the data were processed

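Poly(A) RNA of 6 libraries was sequenced as read pairs of 150 bases. Per the labels, the authors used fastp, HISAT2, StringTie and GRCh38, with versions and annotation release not given in the sources used here. The authors deposited 1 table with an FPKM value and an expected count per gene and library. The deposited expected counts are estimates that the authors derived from transcript coverage, without normalization. Columns of gene annotation were not used.

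The expected counts (whole numbers) of all genes whose mean FPKM reached 1 were fitted in edgeR 4.0.16 (R 4.3.3), with TMM scaling, a two-sided quasi-likelihood test and Benjamini-Hochberg adjustment over all 11867 tested genes. Calls were made at an adjusted p under 0.05, alone or with an absolute log2 fold change of at least 1. The code of the fit was run on simulated data. There, far fewer genes changed than were called here, and 1 fixed setting gave the spread between libraries of every gene. Error rates in the real libraries were not checked by this. With 3 libraries a group, these p-values weigh the difference between groups against the spread between libraries, which edgeR estimates with help from all tested genes. An exact permutation test of GDF15 cannot go below p = 0.1, the value it gave.

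Replicate numbers were taken from the sample titles. The alternatives were DESeq2 1.42.0, limma 3.58.1, other scalings, filters and pseudocounts, a replicate block and each library left out in turn. Python 3.11.15, pandas 2.3.3 and matplotlib 3.10.9 were used for sequences and plots. Gene positions are those of the deposited table, and several differ from release 29. Transcript identifiers of that table were looked up in GENCODE release 29 (GRCh38), and the siRNA sequence was located in its transcripts. Named were the 10 genes, GDF15, and of each related list the 2 called genes with the smallest adjusted p in each direction and all genes of lists with 5 or fewer tested genes. Outside this rule, PTTG1 was named as the inhibitor of separase, and CCNB1 and PLK1 as shared with the proliferation markers. ESCO2, NIPBL, MAU2, CHTF8, AKAP8 and NSMCE1 were named after their values were seen. The genes, lists and tests were chosen with earlier results of these data known.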

Additional observations from a re-analysis of the deposited data

How the results depend on the processing

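Over 14 alternatives, 126 of 126 log2 fold changes of the 9 genes past the filter were below 0, and 6 of these genes met both thresholds in every setting. The genes were selected on this contrast and every setting reuses the same libraries, so nothing is read from these counts. The median log2 fold change of the 9 genes, -1.40, was -1.50 with total counts alone and with limma on log2(FPKM + 0.1). It was -1.46 to -1.36 with 1 library left out. The median of all tested genes moved alongside, from 0.00257 to -0.0992 with total counts and to -0.0997 with that limma fit. Deviations of same-numbered libraries had correlations near 0 (0.0276, -0.0753 and 0.0458). The same-numbered pair had the highest correlation for siGDF15 replicate 1 and for NC replicate 3, and not for the other libraries. Whether same-numbered libraries were prepared together was not stated, and such correlations cannot settle it. With the replicate block the median was -1.40, GDF15 was at -0.91 and 40 related genes were called, and the block changed no call among the 10 genes, GDF15 or the related genes. Of the related genes 40 were called in the main setting and 38 to 40 in the others. The number of higher ones fell from 3 to 1 with total counts and without a filter, in each of which ESCO1 was called (adjusted p = 0.0059 and 0.0061 in edgeR) and NSMCE2 and NSMCE3 were not. Of all called genes 48.9% were higher, and 36.6% with total counts or limma. Genes past both thresholds numbered 927, and 1669 with a filter of 0.1, 1659 without one and 560 with limma on log2(FPKM + 1). For STAG1 the value ran from -0.76 to -0.55 with 1 library left out. NSMCE3 was also lost with a filter of 0.1 (adjusted p = 0.072 in edgeR), in both limma fits (adjusted p = 0.19 each), without NC replicate 1 (adjusted p = 0.12) and without siGDF15 replicate 2 (adjusted p = 0.11), and CHTF8 without siGDF15 replicate 1 or 3. With 3 libraries a group, small differences such as those of NIPBL and MAU2 are not settled by a missed threshold. How much annotated gene length differs from the expressed transcript limits comparisons of level between genes.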

Other observations

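The implied gene length behind each FPKM value differed from GENCODE release 29 by unequal amounts. It came to 0.963 to 1.03 times the union of all annotated exons for SMC1A, STAG1, SMC2, SMC4, NCAPG and ESPL1. For SMC3, RAD21, STAG2 and NCAPH it was 3.62, 2.32, 1.96 and 1.99 times that union. The deposited table lists 10 transcripts for SMC3 where release 29 holds 1 of them, 19 for RAD21 with 8 of them in release 29, and 19 for STAG2 with 9. The order of SMC1A and SMC3 therefore depends on the length used, as NC replicate 1 had an SMC1A to SMC3 ratio of 3.17 in FPKM and 0.932 per kilobase of coding transcript.

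Of 33 related genes that were lower and had a RefSeq promoter window, 15 held the CHR letters, 21 a CCAAT box, 11 both and 7 an E2F motif. Over the 8820 tested genes with a window the shares were 15.1%, 43.5%, 6.42% and 7.09%. The related genes were listed with earlier results known, so these are descriptions.

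Sites of the siGDF15 seed were also counted in coding sequences. The 841 tested genes with a 7-base site in the coding sequence and none in the 3′UTR, of which STAG1 is 1, had a median log2 fold change of -0.09, beside -0.14 for the 1184 genes with a 7-base site in the 3′UTR and -0.25 for the 16 genes with 2 or more 8-base sites there.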
